A study of Homo sapiens with 18 samples.

Results

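The mRNA levels of 49 genes that license, start and carry out DNA replication were examined in PANC-1 cells in which the kinase PKR was knocked down or inhibited. The genes were chosen by name, as loader, helicase, polymerase and accessory factors of the replication machinery, and each of the 49 was found among the 26485 genes listed for every library. PANC-1 is an established human cell line that was derived from a pancreatic duct tumor, and PKR, encoded by EIF2AK2, is a kinase activated by double-stranded RNA. In one set the cells received a control siRNA or either of the siRNAs against PKR, called PKR siRNA 1 and PKR siRNA 2, and in the other they received DMSO or C16, an inhibitor directed at the ATP site of PKR, at 400 nM or 800 nM. RNA was taken 72 h after the transfection or the start of the treatment. Each of the 6 groups had 3 libraries, 18 in all. The sets were sequenced in separate runs and normalized apart, so each was compared only within itself, and an effect of the run cannot be told apart from that of the kind of treatment. The model is 1 cell line, and no source used here says whether the replicates were separate cultures, so p-values measure only the spread between these libraries. The siRNAs shared their control libraries and the doses shared their DMSO libraries.

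Replication begins when the origin recognition complex, with CDC6 and CDT1, loads the MCM2-7 helicase on DNA in G1, a step called licensing that geminin (GMNN) holds back after S phase has begun. In S phase CDC7 and cyclin-dependent kinases, which CDC25A activates by removing inhibitory phosphates, turn the loaded helicase into an active one with CDC45 and the GINS complex. DNA polymerases, a sliding clamp and its loader, single-strand binding proteins and the enzymes that supply deoxynucleotides then carry out synthesis. Many of these genes are known targets of E2F factors, whose activity rises as cells enter S phase. In RNA from a whole culture, fewer cells in S phase and less RNA per cell cannot be told apart.

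The measure was the normalized count, the reads on a gene divided by a factor for its library. Reads on genes ranged from 1512940 to 1873906 in the siRNA libraries and from 894145 to 1474308 in the C16 libraries, so counting error was larger with C16. All 49 genes passed the filter, a mean of 10 or more normalized counts, in both sets and were tested with limma on log2(normalized count + 1) among 10593 siRNA and 9963 C16 genes. A gene was called, and is said to have risen or fallen, at a Benjamini-Hochberg adjusted p under 0.05 and a fold change over 1.5, which is 0.585 on the log2 scale. Fold changes on that scale understate the change of genes with few reads. The knockdown was seen in every library, since EIF2AK2 lay at 93.5 to 103 normalized counts in the controls, at 9.65 to 13.6 after PKR siRNA 1 and at 7.96 to 9.41 after PKR siRNA 2. With C16 EIF2AK2 read 39.2 to 54.1 in all 9 libraries. The epithelial markers KRT8, KRT18, KRT19, EPCAM and CDH1 were read in all libraries, and KRT7 was lowest, at 0.761 in 1 library. Of the markers of other cell types, PTPRC, CD3E and DCN were at 0 in all libraries, PECAM1, CDH5 and LUM reached at most 1.90, and CD68 (51.0 to 273) and COL1A1 (21.8 to 161) were present.

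As a group, the replication genes were lower with PKR siRNA 2, little moved with PKR siRNA 1 and higher with both doses of C16. Together they took 0.425% to 0.437% of the reads in the controls, 0.432% to 0.440% after PKR siRNA 1 and 0.339% to 0.343% after PKR siRNA 2. With DMSO they took 0.388% to 0.403%, with 400 nM C16 0.472% to 0.508% and with 800 nM C16 0.539% to 0.560%. The PKR siRNA 2 libraries lay below all other siRNA libraries, and the DMSO, 400 nM and 800 nM libraries did not overlap.

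**Figure D1:**
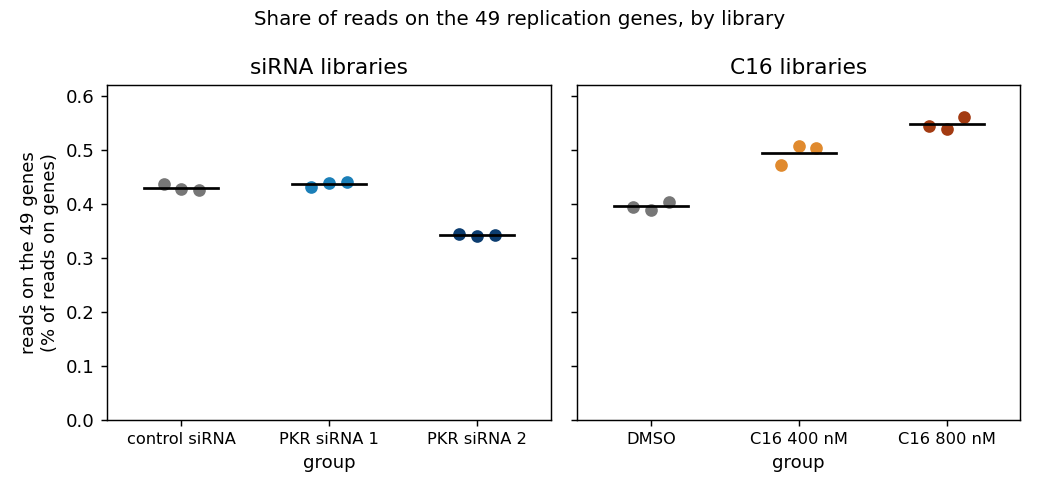
Reads on the 49 replication genes, as a percentage of all reads on genes, for each library (points) with the group mean (line), in the siRNA libraries (left) and the C16 libraries (right). The PKR siRNA 2 libraries, at 0.339% to 0.343%, lie below the other siRNA libraries, and the share is higher at each dose of C16.

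With PKR siRNA 1, 3 of the 49 genes rose (6.12%, against 8.53% of all genes tested) and 3 fell (6.12%, against 12.6%). The median log2 difference of the 49 was 0.01, beside -0.01 over all genes. With PKR siRNA 2, 1 gene rose (2.04%, against 10.8% of all genes) and 12 fell (24.5%, against 12.8%), and the median was -0.27, beside -0.01. In the direct comparison of PKR siRNA 2 with PKR siRNA 1, 0 rose (against 16.4% of all genes) and 13 fell (26.5%, against 15.3%), with a median of -0.35, beside -0.01. By limma at an unadjusted p under 0.05, 2 genes were higher with PKR siRNA 2, and edgeR and DESeq2 also called 0. With 400 nM C16, 8 rose (16.3%, against 7.08% of all genes) and 1 fell (2.04%, against 5.45%), with a median of 0.29. With 800 nM C16, 16 rose (32.7%, against 11.6%) and 3 fell (6.12%, against 14.1%), with a median of 0.37. Between the doses, 1 was higher at 800 nM (2.04%, against 1.13% of all genes) and 0 were lower (against 3.95%), where limma gave 5 lower at an unadjusted p under 0.05 and edgeR and DESeq2 called 0. The median between the doses was 0.14, beside -0.02 over all genes. The median over all genes was 0.00 at either dose against DMSO.

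Without the fold threshold, at an adjusted p under 0.05 alone, the counts were larger. With PKR siRNA 1, 10 genes were higher (20.4%, against 21.1% of all genes) and 6 lower (12.2%, against 23.9%). With PKR siRNA 2, 1 was higher (2.04%, against 22.1%) and 27 were lower (55.1%, against 25.2%). At 400 nM C16, 20 were higher (40.8%, against 14.6%) and 1 was lower (2.04%, against 11.9%). At 800 nM C16, 24 were higher (against 22.3% of all genes) and 3 were lower (6.12%, against 22.6%). Between the siRNAs, 1 was higher with PKR siRNA 2 (2.04%, against 27.7%) and 27 were lower (55.1%, against 29.3%). Between the doses, 7 were higher at 800 nM (14.3%, against 5.09%) and 1 was lower (2.04%, against 9.18%).

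**Figure D2:**
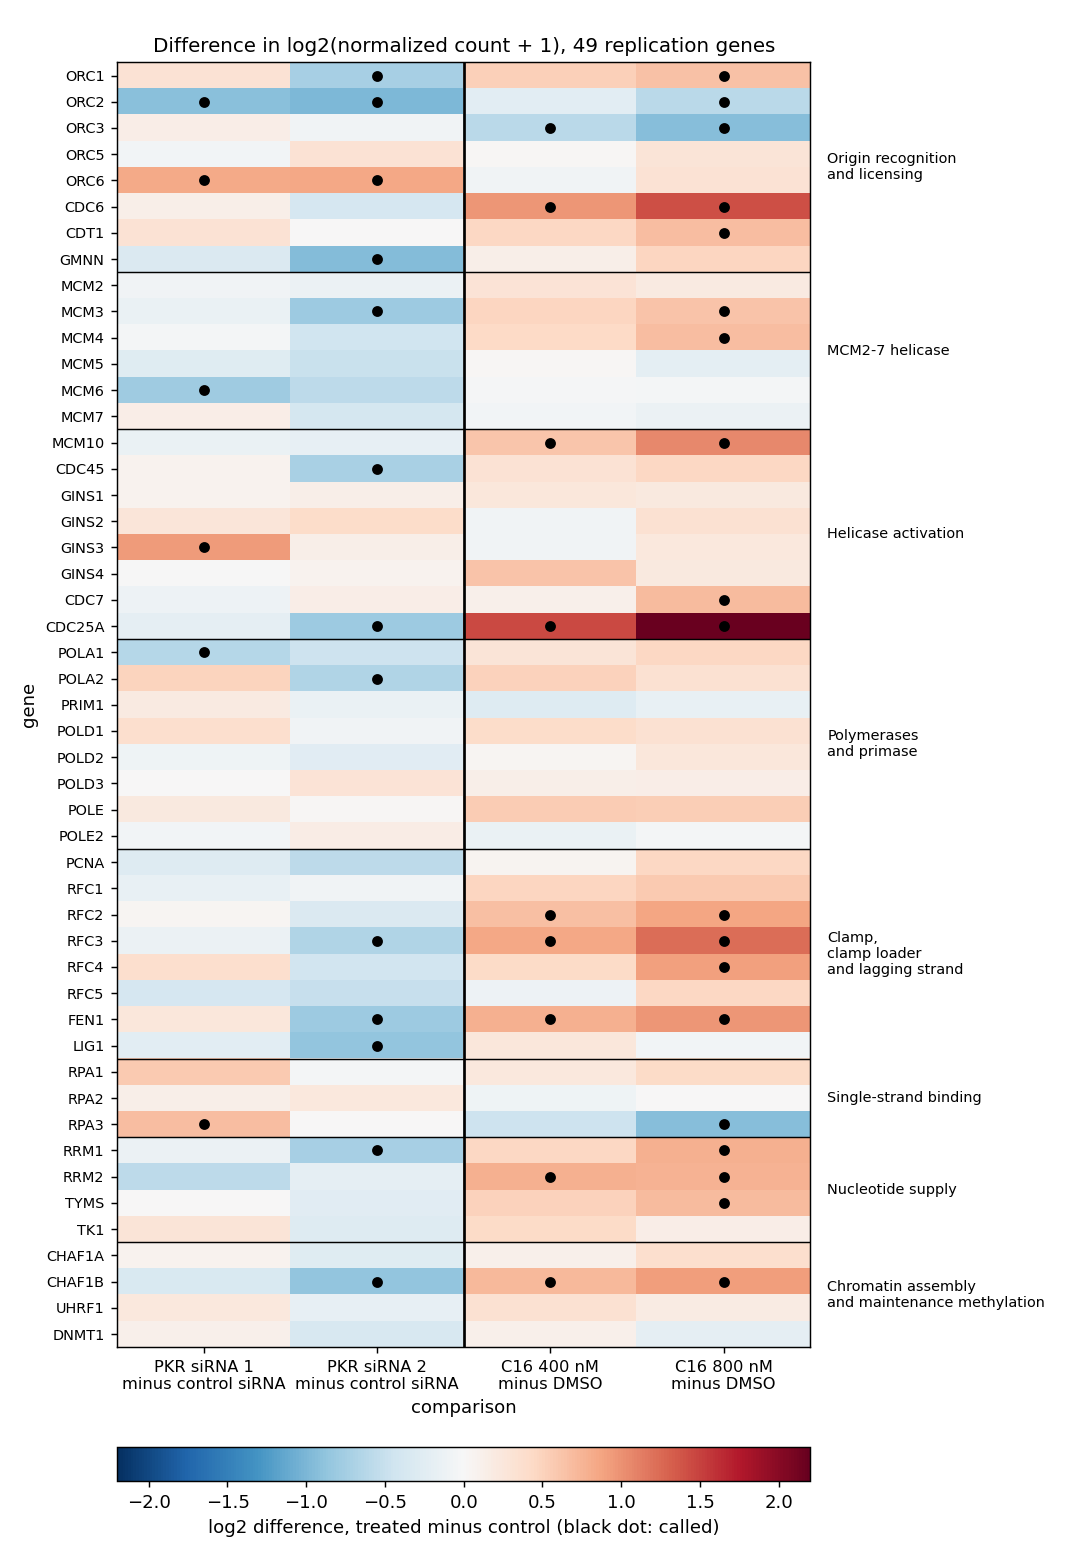
Log2 difference, treated minus control, of each of the 49 genes (rows, grouped by role) in the 4 comparisons with a control (columns). Blue is lower, red is higher, and a black dot marks a call; the PKR siRNA 2 column holds 12 calls downward and 1 upward, and the 800 nM C16 column 16 upward and 3 downward.

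Of the 49 genes, 27 were called in at least 1 of the 4 comparisons with a control (55.1%), against 4904 of the 9821 genes tested in both sets (49.9%), a share near the background. The 22 called in none were CHAF1A, DNMT1, GINS1, GINS2, GINS4, MCM2, MCM5, MCM7, ORC5, PCNA, POLD1, POLD2, POLD3, POLE, POLE2, PRIM1, RFC1, RFC5, RPA1, RPA2, TK1 and UHRF1. Of the 12 genes that fell with PKR siRNA 2, 7 rose with 800 nM C16 (58.3%), which is 7 of the 16 that rose there (43.8%). Over the genes tested in both sets, 326 of the 1244 that fell with PKR siRNA 2 rose with 800 nM C16 (26.2%), which is 28.9% of the 1127 that rose there. The difference of these shares was not tested. The 7 genes were CDC25A, CHAF1B, FEN1, MCM3, ORC1, RFC3 and RRM1. ORC2 fell in both.

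Promoter windows of RefSeq (GRCh38.p14), from 250 bases before to 50 after the start of each gene, were given for 43 of the 49 genes, without GINS4, MCM4, MCM5, POLD3, RPA2 and RPA3. They were searched on both strands for the E2F words TTTCGCGC, TTTGGCGC, TTTCCCGC and TTTGCCGC. At least 1 of the words stood in 21 of the 43 windows (48.8%), against 908 of 27305 windows of all genes (3.33%). All 4 MCM2-7 windows held a word, as did 4 of 7 for helicase activation, 4 of 7 for polymerases and primase, 3 of 8 for origin recognition and licensing, 3 of 8 for the clamp, its loader and lagging strand, 2 of 4 for chromatin assembly and methylation, 1 of 4 for nucleotide supply and 0 of 1 for single-strand binding. In the other lists described here, 6 of 34 windows of other replication genes (17.6%) and 2 of 16 of mitotic genes (12.5%) held one. They stood in 6 of the 15 windows of genes that rose with 800 nM C16 (40.0%) and in 5 of the 12 that fell with PKR siRNA 2 (41.7%). Of 27 matches, 21 began no farther than 100 bases before the start or lay after it. The CCAAT box, CCAAT, stood in 25 of the 43 windows (58.1%, against 35.7% of all), in 52.9% of those of other replication genes and in 87.5% of those of mitotic genes. The CHR element, TTTGAA, which is known from promoters of mitotic genes, stood in 1 window (2.33%, against 15.4% of all), that of RRM1, and in 10 of 16 windows of the mitotic genes listed here (62.5%).

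The windows of 6 genes are shown, 5′ to 3′ on the strand of the gene, with the E2F words in capitals. They were taken from the 12 windows with a word among the 25 given for called genes. The other 13, ORC2, FEN1 and CHAF1B among them, held none. CDC25A and CDC6 had the largest rises with C16, RFC3 and MCM3 moved in opposite directions with PKR siRNA 2 and C16, POLA2 differed between the siRNAs and MCM6 fell with PKR siRNA 1. In MCM6 the words stand in pairs on opposite strands that overlap by 4 bases.
CDC25A (chr3:48188368-48188667, minus strand): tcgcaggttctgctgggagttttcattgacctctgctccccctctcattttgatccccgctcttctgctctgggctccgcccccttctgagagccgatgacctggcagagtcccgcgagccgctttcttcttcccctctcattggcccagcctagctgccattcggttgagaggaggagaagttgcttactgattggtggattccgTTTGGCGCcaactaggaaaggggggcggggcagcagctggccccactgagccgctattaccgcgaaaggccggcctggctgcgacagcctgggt
CDC6 (chr17:40287629-40287928, plus strand): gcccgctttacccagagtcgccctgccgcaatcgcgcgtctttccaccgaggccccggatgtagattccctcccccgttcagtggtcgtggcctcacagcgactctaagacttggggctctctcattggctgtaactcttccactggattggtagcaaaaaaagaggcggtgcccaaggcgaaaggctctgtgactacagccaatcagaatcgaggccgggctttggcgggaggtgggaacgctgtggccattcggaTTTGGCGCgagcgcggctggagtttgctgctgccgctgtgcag
RFC3 (chr13:33817899-33818198, plus strand): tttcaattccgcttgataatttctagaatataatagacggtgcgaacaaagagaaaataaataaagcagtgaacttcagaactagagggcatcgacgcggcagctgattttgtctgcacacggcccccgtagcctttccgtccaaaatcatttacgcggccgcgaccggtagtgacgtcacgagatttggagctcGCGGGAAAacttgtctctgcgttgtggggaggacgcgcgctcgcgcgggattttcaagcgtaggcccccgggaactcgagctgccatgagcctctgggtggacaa
MCM3 (chr6:52284693-52284992, minus strand): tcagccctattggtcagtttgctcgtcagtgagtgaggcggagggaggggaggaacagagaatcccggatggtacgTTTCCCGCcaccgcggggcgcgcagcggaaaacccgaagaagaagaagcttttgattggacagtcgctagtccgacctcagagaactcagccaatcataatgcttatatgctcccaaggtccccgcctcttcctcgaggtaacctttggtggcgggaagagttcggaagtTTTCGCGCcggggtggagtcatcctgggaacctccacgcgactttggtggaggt
POLA2 (chr11:65261712-65262011, plus strand): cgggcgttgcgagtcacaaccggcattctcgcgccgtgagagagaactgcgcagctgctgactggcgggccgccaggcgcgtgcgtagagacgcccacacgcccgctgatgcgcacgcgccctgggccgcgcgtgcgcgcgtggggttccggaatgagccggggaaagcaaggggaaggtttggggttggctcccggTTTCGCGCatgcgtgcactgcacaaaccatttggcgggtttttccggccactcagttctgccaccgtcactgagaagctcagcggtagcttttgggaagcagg
MCM6 (chr2:135876394-135876693, minus strand): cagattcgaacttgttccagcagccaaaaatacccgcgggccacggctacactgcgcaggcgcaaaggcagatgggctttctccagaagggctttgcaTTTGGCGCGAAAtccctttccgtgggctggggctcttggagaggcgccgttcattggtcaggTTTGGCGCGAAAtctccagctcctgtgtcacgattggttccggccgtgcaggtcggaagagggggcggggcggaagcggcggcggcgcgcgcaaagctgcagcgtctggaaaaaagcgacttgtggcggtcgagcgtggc
A match of letters is a description of the window and not a site of binding. The RefSeq starts lay 0 to 543 bases from the gene ends used in the files for 42 of these genes, and 6421 bases from it for UHRF1.

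Origin recognition and licensing genes moved in both directions. ORC2, a subunit of the complex that marks origins (chromosome 2, 200910171 to 200963701, minus strand), read 103, 103 and 108 with control siRNA, 66.7, 48.1 and 52.1 after PKR siRNA 1, and 53.7, 55.8 and 48.0 after PKR siRNA 2. Both knockdowns lay below all controls, with log2 differences of -0.91 ± 0.14 (SE, limma adjusted p = 1.85e-07) and -0.98 ± 0.14 (limma adjusted p = 2.26e-08). With DMSO ORC2 read 47.6, 61.0 and 55.6, with 400 nM C16 47.9, 48.4 and 42.6, and with 800 nM C16 29.2, 36.6 and 42.0, where it fell by 0.60 ± 0.18 (limma adjusted p = 0.00434). ORC2 was the single gene of the 49 that fell with both siRNAs and with 800 nM C16, and its fall with C16 was no longer called without DMSO replicate 2, without 800 nM replicate 1 or with a pseudocount of 5. ORC6, another subunit (chromosome 16, 46689646 to 46698394, plus strand), was the single gene that rose with both siRNAs. It read 32.9, 26.9 and 29.4 with control siRNA, 53.3, 48.1 and 58.9 after PKR siRNA 1, and 52.7, 71.8 and 42.3 after PKR siRNA 2, giving 0.83 ± 0.18 (limma adjusted p = 0.000106) and 0.85 ± 0.18 (limma adjusted p = 5.45e-05). ORC6 read 36.0, 38.1 and 35.0 with DMSO, 30.8, 39.2 and 34.0 with 400 nM C16, and 53.5, 34.1 and 51.5 with 800 nM C16, where 1 of the 3 treated libraries lay below the DMSO libraries and the difference was 0.32 ± 0.19 (limma adjusted p = 0.179).

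ORC1, the subunit that is unstable after the start of S phase, read 56.5, 68.8 and 63.5 with control siRNA, 82.2, 87.1 and 68.5 after PKR siRNA 1, and 28.9, 39.7 and 45.1 after PKR siRNA 2. It fell with PKR siRNA 2 by 0.74 ± 0.16 (limma adjusted p = 8.96e-05), a call that was lost without PKR siRNA 2 replicate 1, and lay below PKR siRNA 1 by 1.06. In the C16 set ORC1 read 18.5, 22.9 and 26.6 with DMSO, 23.4, 41.5 and 36.2 at 400 nM, and 34.3, 30.5 and 42.9 at 800 nM. At 800 nM it rose by 0.64 ± 0.22 (limma adjusted p = 0.0156), a call lost without DMSO replicate 1, without 800 nM replicate 3, with DESeq2 and with a pseudocount of 5. ORC3 read 71.9, 74.1 and 73.9 with control siRNA, 95.5, 69.8 and 79.1 after PKR siRNA 1, and 68.6, 62.2 and 77.1 after PKR siRNA 2, so neither knockdown separated from the controls. With C16 it moved the other way from ORC1: it read 59.3, 52.4 and 48.0 with DMSO, 30.8, 33.4 and 41.5 at 400 nM, and 26.2, 21.9 and 35.3 at 800 nM. ORC3 fell at 400 nM by 0.59 ± 0.20 (limma adjusted p = 0.0208), a call lost on leaving out 4 of the 6 libraries in turn (DMSO replicates 1 and 2, 400 nM replicates 1 and 2), with DESeq2 and with a pseudocount of 5, and at 800 nM by 0.93 ± 0.20 (limma adjusted p = 8.84e-05). ORC5 was not called in any comparison.

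CDC6, the ATPase that brings the helicase to origins (chromosome 17, 40287894 to 40303161, plus strand), had the largest rise among licensing genes with C16. It read 92.3, 59.0 and 81.5 with DMSO, 141, 154 and 158 at 400 nM, and 191, 206 and 225 at 800 nM. The 3 groups did not overlap. The rise was 0.98 ± 0.12 at 400 nM (limma adjusted p = 1.33e-09) and 1.43 ± 0.12 at 800 nM (limma adjusted p = 1.60e-15). In the siRNA set CDC6 read 102, 105 and 106 in the controls, 112, 118 and 112 after PKR siRNA 1, and 79.6, 82.6 and 79.9 after PKR siRNA 2, which was lower by 0.37 and did not pass the fold threshold. CDT1, which delivers the helicase with CDC6, rose at 800 nM by 0.68 ± 0.19 (limma adjusted p = 0.00223), with treated and DMSO libraries that overlapped, a call lost without DMSO replicate 2 or without 800 nM replicate 2. Geminin, the inhibitor of CDT1, fell with PKR siRNA 2 by 0.95 ± 0.14 (limma adjusted p = 2.25e-08) and was higher at 800 nM C16 by 0.47, under the fold threshold.

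The MCM2-7 genes encode the 6 subunits of the ring that unwinds DNA, and they differed among themselves. With PKR siRNA 2 all 6 were lower on average. At an adjusted p under 0.05 alone, 5 of the 6 were lower (against 25.2% of all genes). Past the fold threshold only MCM3 fell, 1 of 6 (against 12.8%). MCM3 read 462, 420 and 401 with control siRNA, 338, 394 and 426 after PKR siRNA 1, and 255, 235 and 247 after PKR siRNA 2. Its fall with PKR siRNA 2 was 0.80 ± 0.08 (limma adjusted p = 8.06e-15). MCM6 read 257, 217 and 248 with control siRNA, 137, 142 and 138 after PKR siRNA 1, and 167, 149 and 166 after PKR siRNA 2. It was the only MCM2-7 gene called with PKR siRNA 1, where it fell by 0.79 ± 0.09 (limma adjusted p = 4.49e-11), and with PKR siRNA 2 it was lower by 0.58, just under the threshold. MCM4 read 378, 335 and 355 with control siRNA, 369, 332 and 340 with PKR siRNA 1, and 257, 251 and 282 after PKR siRNA 2, a difference of -0.43. MCM2 was the least moved, by -0.13 with PKR siRNA 2.

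With 800 nM C16 2 of the 6 helicase genes rose (against 11.6% of all genes). MCM3 read 211, 211 and 212 with DMSO, 260, 300 and 330 at 400 nM, and 369, 270 and 344 at 800 nM, and it rose at 800 nM by 0.62 ± 0.09 (limma adjusted p = 1.45e-07), a call lost without 800 nM replicate 1 or replicate 3. MCM4 read 188, 183 and 210 with DMSO, 226, 262 and 305 at 400 nM, and 313, 317 and 306 at 800 nM, and rose by 0.69 ± 0.09 (limma adjusted p = 8.86e-09). MCM6 and MCM7 did not separate upward: at 800 nM their differences were -0.04 and -0.14. MCM5 was not called, at -0.22, but its 800 nM libraries (94.8 to 107.2) lay below all others. It read 109.5 to 126.4 with DMSO and 109.6 to 125.5 at 400 nM. MCM6 read 152, 150 and 146 with DMSO, 135, 157 and 147 at 400 nM, and 154, 132 and 150 at 800 nM, with overlap throughout.

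Among the genes that activate the helicase, CDC25A and MCM10 rose with C16. Of the 4 GINS genes, 0 were called with C16. Of all genes, 7.08% rose and 5.45% fell at 400 nM, and 11.6% and 14.1% at 800 nM. The 4 GINS genes are too few to be told apart from these shares. CDC25A, a phosphatase that activates cyclin-dependent kinases (chromosome 3, 48157178 to 48188311, minus strand), read 10.7, 12.4 and 15.2 with DMSO, 34.0, 40.4 and 35.1 at 400 nM, and 68.6, 52.4 and 61.1 at 800 nM. The groups did not overlap, and CDC25A had the largest change of the 49 genes, 1.46 ± 0.21 at 400 nM (limma adjusted p = 1.53e-07) and 2.17 ± 0.21 at 800 nM (limma adjusted p = 4.89e-13). It was also the only one called between the doses, higher at 800 nM by 0.71 ± 0.21 (limma adjusted p = 0.0148), a call lost without 400 nM replicate 1 or without 800 nM replicate 1 or 3. CDC7, at 0.57 between the doses, was not called by limma but was by edgeR and DESeq2. In the siRNA set CDC25A read 86.3, 64.5 and 85.3 with control siRNA, 78.9, 62.6 and 62.7 after PKR siRNA 1, and 39.8, 45.0 and 48.9 after PKR siRNA 2. It fell with PKR siRNA 2 by 0.80 ± 0.15 (limma adjusted p = 9.35e-06), the reverse of its direction with C16.

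MCM10, which helps the helicase to start, read 27.2, 40.0 and 29.7 with DMSO, 45.7, 50.7 and 51.1 at 400 nM, and 72.6, 59.7 and 70.6 at 800 nM. Its rise was 0.61 ± 0.17 at 400 nM (limma adjusted p = 0.00579), a call lost without DMSO replicate 1 or 3 or 400 nM replicate 3, with DESeq2 and with a pseudocount of 5, and 1.06 ± 0.17 at 800 nM (limma adjusted p = 9.33e-07). In the siRNA set MCM10 read 62.6, 67.7 and 61.6 in the controls, 75.5, 50.8 and 49.2 after PKR siRNA 1, and 54.7, 53.6 and 61.1 after PKR siRNA 2, with no call. CDC7, the kinase that phosphorylates the helicase, rose at 800 nM by 0.69 ± 0.14 (limma adjusted p = 5.69e-05). CDC45, a part of the active helicase, fell with PKR siRNA 2 by 0.72 ± 0.19 (limma adjusted p = 0.000999).

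GINS3 is a subunit of the GINS complex and had the lowest level per kilobase of the 49 in control siRNA libraries, 5.68 normalized counts per kilobase. It read 15.4, 14.0 and 11.4 with control siRNA, 17.8, 34.5 and 30.9 after PKR siRNA 1, and 16.9, 18.2 and 10.3 after PKR siRNA 2. It rose with PKR siRNA 1 by 0.94 ± 0.28 (limma adjusted p = 0.00470), but without replicate 2 of PKR siRNA 1 it was not called. With C16 GINS3 read 11.7, 15.2 and 13.7 with DMSO, 10.6, 16.1 and 11.7 at 400 nM, and 18.2, 25.6 and 8.59 at 800 nM. GINS1, GINS2 and GINS4 were called in 0 comparisons.

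Of the 8 polymerase and primase genes, 0 were called with either dose of C16. Of all genes, 7.08% rose and 5.45% fell at 400 nM, and 11.6% and 14.1% at 800 nM. The medians of the 8 were 0.20 and 0.29, and 2 were higher at each dose at an adjusted p under 0.05 alone. POLA1 and POLA2 encode the catalytic and accessory subunits of polymerase alpha, which makes the primers with PRIM1. POLA2 (chromosome 11, 65261852 to 65298685, plus strand) read 109, 146 and 109 with control siRNA, 167, 156 and 183 after PKR siRNA 1, and 85.5, 65.4 and 77.1 after PKR siRNA 2. The PKR siRNA 1 libraries lay above all controls and the PKR siRNA 2 libraries below them. PKR siRNA 1 gave 0.48 ± 0.12 (limma adjusted p = 0.000472), under the fold threshold, and PKR siRNA 2 gave a fall of 0.66 ± 0.12 (limma adjusted p = 2.17e-06) that was lost without control replicate 2 or PKR siRNA 2 replicate 2. The direct difference between the siRNAs was -1.15 ± 0.12 (limma adjusted p = 8.84e-14). POLA1 read 63.7, 66.6 and 48.4 with control siRNA, 45.5, 30.8 and 38.6 after PKR siRNA 1, and 43.8, 33.2 and 54.5 after PKR siRNA 2. It fell with PKR siRNA 1 by 0.63 ± 0.18 (limma adjusted p = 0.00330), which was lost when either control replicate 1, control replicate 2 or PKR siRNA 1 replicate 2 was left out and with a pseudocount of 5. With C16 POLA1 read 21.4, 31.4 and 23.6 with DMSO, 21.3, 36.9 and 37.2 at 400 nM, and 34.3, 25.6 and 47.7 at 800 nM, and POLA2 read 36.0, 55.2 and 58.6, then 62.8, 73.8 and 72.3, then 61.5, 59.7 and 63.9. POLE, the leading-strand polymerase, was higher with C16 by 0.55 and 0.54, both under the fold threshold.

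By count, the clamp, its loader and the lagging-strand enzymes held the most rises of any role with C16. They were 3 of 8 genes at 400 nM (against 7.08% of all genes) and 4 of 8 at 800 nM (against 11.6%). The roles differ in size, and nucleotide supply had 3 of 4 at 800 nM. FEN1, the nuclease that removes the flaps of Okazaki fragments (chromosome 11, 61792637 to 61797242, plus strand), read 105, 143 and 110 with DMSO, 192, 235 and 187 at 400 nM, and 231, 240 and 228 at 800 nM. It rose by 0.78 ± 0.10 (limma adjusted p = 2.50e-08) and 0.97 ± 0.10 (limma adjusted p = 1.71e-11). The treated libraries lay above all DMSO libraries. In the siRNA set FEN1 read 202, 165 and 166 in the controls, 201, 236 and 197 after PKR siRNA 1, and 102, 97.6 and 104 after PKR siRNA 2, a fall of 0.81 ± 0.10 (limma adjusted p = 1.54e-10). LIG1, the ligase that joins the fragments, read 59.6, 70.9 and 72.0 with control siRNA, 63.3, 51.7 and 57.9 after PKR siRNA 1, and 37.8, 38.6 and 32.9 after PKR siRNA 2, where it fell by 0.87 ± 0.16 (limma adjusted p = 5.47e-06). With C16 LIG1 was not called, and it read 27.2, 30.5 and 33.5 with DMSO, 38.3, 36.9 and 34.0 at 400 nM, and 29.2, 21.9 and 38.2 at 800 nM.

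The 5 RFC genes encode the loader that places the PCNA clamp on DNA. RFC3 read 29.1, 33.3 and 25.1 with DMSO, 50.0, 50.7 and 58.5 at 400 nM, and 68.6, 60.9 and 80.2 at 800 nM, and rose by 0.85 ± 0.17 (limma adjusted p = 0.000108) and 1.23 ± 0.17 (limma adjusted p = 2.34e-08). RFC2 read 52.5, 64.8 and 57.1, then 78.7, 107 and 91.5, then 109, 117 and 93.5, and rose by 0.66 ± 0.14 (limma adjusted p = 0.000162), lost without 400 nM replicate 2, and 0.86 ± 0.14 (limma adjusted p = 4.65e-07). Both genes lay above all DMSO libraries at both doses. RFC4 rose at 800 nM by 0.89 ± 0.12 (limma adjusted p = 8.21e-09), and RFC1, at 0.58, lay just under the fold threshold with limma and was called by edgeR and DESeq2. In the siRNA set RFC3 read 58.5, 64.5 and 64.5 with control siRNA, 46.6, 66.2 and 60.8 after PKR siRNA 1, and 40.8, 35.4 and 41.4 after PKR siRNA 2, a fall of 0.66 ± 0.16 (limma adjusted p = 0.000513). RFC2 read 139, 104 and 121, then 114, 131 and 126, then 84.5, 102 and 104, with no call. RFC4 read 98.6, 89.2 and 89.1 with control siRNA, 141, 102 and 116 after PKR siRNA 1, and 59.7, 65.4 and 81.8 after PKR siRNA 2, and the siRNAs differed by -0.79 ± 0.13 (limma adjusted p = 2.65e-07). PCNA itself was lower with PKR siRNA 2 by 0.58, just under the threshold. It was called there without control replicate 2 or without PKR siRNA 2 replicate 2 or 3. At 800 nM C16 the PCNA libraries (192.7 to 210.8) lay above those with DMSO (134.3 to 162.3), with no call. A gene on the other strand, PCNA-AS1, covers 26.6% of the exon bases of PCNA.

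Of the 3 single-strand binding genes, only RPA3 was called against a control, and its direction differed between the sets. RPA3, the smallest subunit of the RPA trimer that coats unwound DNA, read 59.6, 59.1 and 77.7 with control siRNA, 111, 98.0 and 103 after PKR siRNA 1, and 66.6, 77.2 and 54.5 after PKR siRNA 2. It rose with PKR siRNA 1 by 0.67 ± 0.14 (limma adjusted p = 4.79e-05) and fell with 800 nM C16 by 0.94 ± 0.21 (limma adjusted p = 0.000174), where it read 47.6, 56.2 and 39.6 with DMSO, 31.9, 31.1 and 40.4 at 400 nM, and 32.3, 18.3 and 23.9 at 800 nM. UMAD1 on the other strand covers 11.7% of its exon bases. RPA1 was higher with PKR siRNA 1 by 0.58, just under the fold threshold, and was called there under 7 of 15 alternatives, edgeR and DESeq2 among them. In the direct comparison of the siRNAs, RPA1 and RPA3 were both called lower with PKR siRNA 2, 2 of the 3 genes (against 15.3% of all genes). The mean of RPA1 was 367 after PKR siRNA 1 and 237 after PKR siRNA 2. RPA2 was called in 0 comparisons.

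Of the 4 genes that supply deoxynucleotides, 1 rose at 400 nM C16, RRM2 (against 7.08% of all genes). At 800 nM 3 rose, RRM1, RRM2 and TYMS (against 11.6%). RRM2, the small and regulated subunit of ribonucleotide reductase, read 237, 262 and 266 with DMSO, 426, 465 and 428 at 400 nM, and 398, 439 and 466 at 800 nM, so the doses overlapped and both lay above DMSO. It rose by 0.78 ± 0.08 (limma adjusted p = 4.72e-12) and 0.76 ± 0.08 (limma adjusted p = 4.93e-12). RRM1, the large subunit, read 255, 250 and 244 with DMSO, 329, 324 and 379 at 400 nM, and 424, 419 and 442 at 800 nM, and rose at 800 nM by 0.78 ± 0.08 (limma adjusted p = 4.05e-12). The subunits moved unlike each other with the siRNAs. RRM1 read 387, 390 and 355 with control siRNA, 351, 330 and 348 after PKR siRNA 1, and 250, 224 and 207 after PKR siRNA 2, a fall of 0.73 ± 0.08 (limma adjusted p = 3.10e-13). RRM2 read 654, 648 and 618, then 401, 440 and 445, then 550, 534 and 581, with differences of -0.58 for PKR siRNA 1, just under the threshold, and -0.20 for PKR siRNA 2. TYMS, which makes thymidylate, rose at 800 nM by 0.69 ± 0.12 (limma adjusted p = 3.62e-06), and ENOSF1 on the other strand covers 56.1% of its exon bases. TK1, which salvages thymidine, was not called. At 400 nM its libraries (184.1 to 244.5) lay above those with DMSO (139 to 166.1). All 4 genes of the role were higher at that dose at an adjusted p under 0.05 alone (against 14.6% of all genes). At 800 nM the TK1 libraries overlapped those with DMSO, with a difference of 0.14.

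CHAF1B, a subunit of the chromatin assembly factor that places histones on new DNA, was called in 3 comparisons. It read 61.6, 68.8 and 59.7 with control siRNA, 45.5, 52.6 and 51.1 after PKR siRNA 1, and 34.8, 31.1 and 37.6 after PKR siRNA 2, a fall of 0.86 ± 0.17 (limma adjusted p = 1.34e-05). With DMSO it read 34.0, 31.4 and 30.5, at 400 nM 48.9, 51.9 and 59.6, and at 800 nM 66.6, 62.1 and 55.3, with rises of 0.72 ± 0.17 (limma adjusted p = 0.000791) and 0.92 ± 0.17 (limma adjusted p = 9.66e-06). CHAF1A, UHRF1 and DNMT1, its partner and the pair that copies DNA methylation, were called in 0 comparisons. At an adjusted p under 0.05 alone, all 4 genes were lower with PKR siRNA 2 than with PKR siRNA 1 (against 29.3% of all genes). The UHRF1 libraries at 400 nM C16 (94.65 to 103.8) lay above those with DMSO (76.91 to 80.64).

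**Figure D3:**
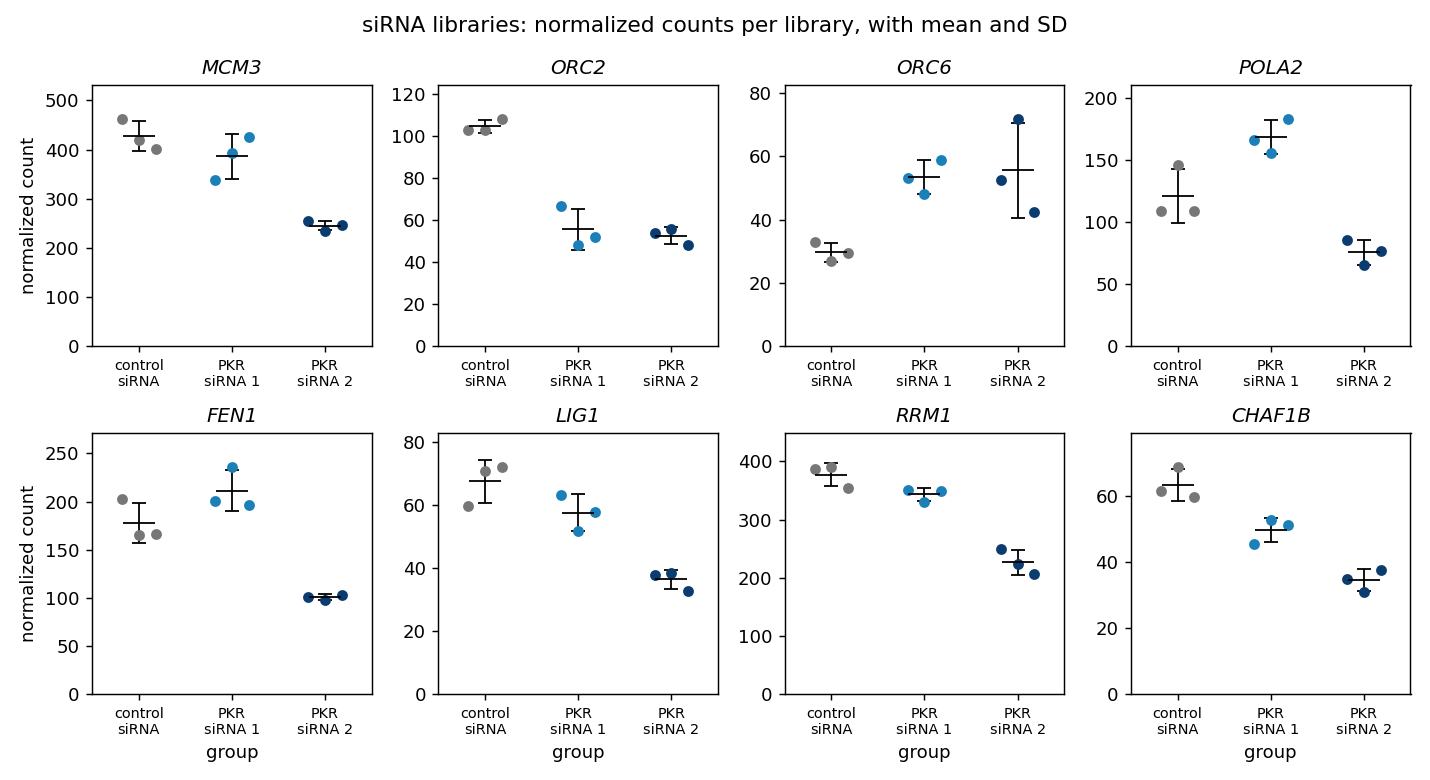
Normalized counts of 8 replication genes in each siRNA library (points) with the mean (bar) and SD (whiskers) of 3 libraries. ORC2 lies below the controls with both siRNAs and ORC6 above them, while FEN1, LIG1, RRM1 and CHAF1B lie lowest with PKR siRNA 2.

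**Figure D4:**
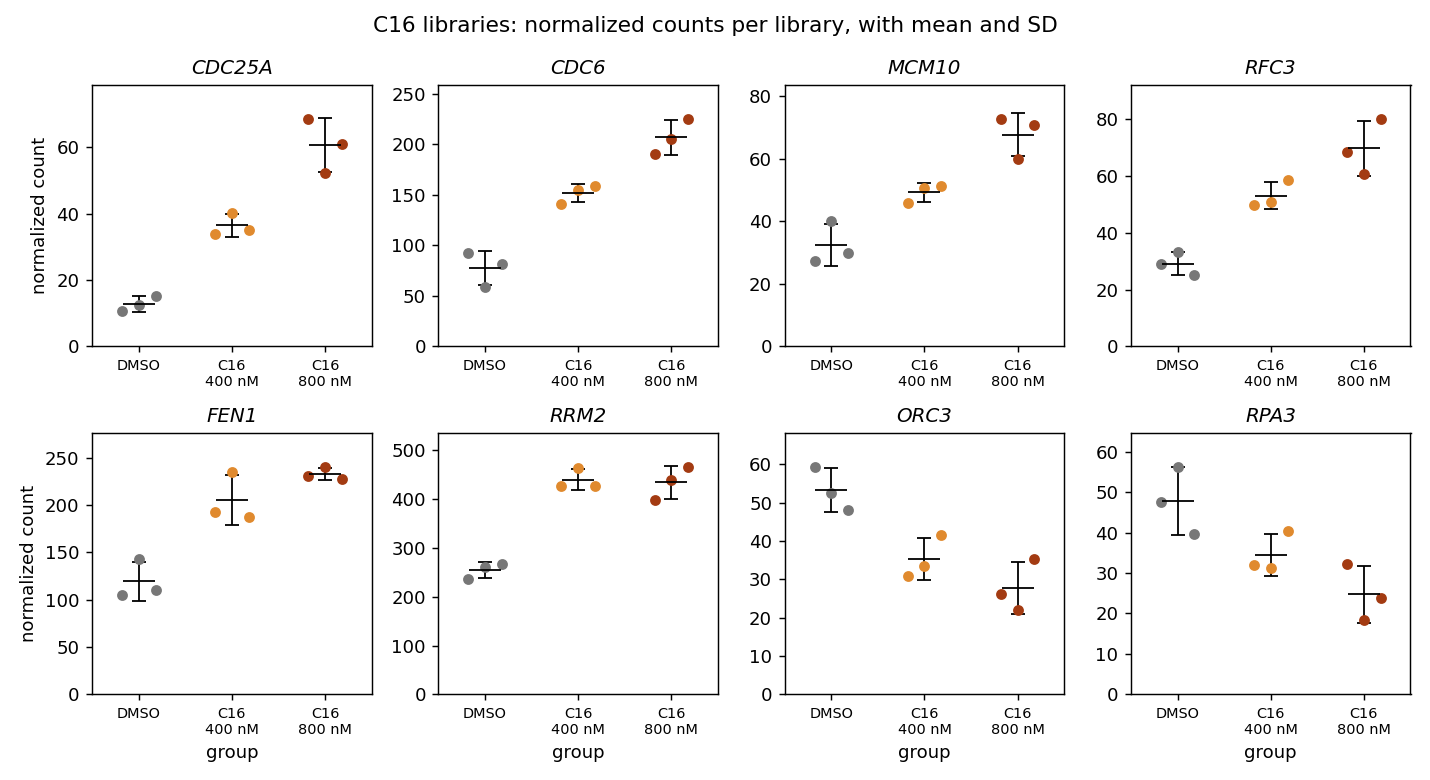
Normalized counts of 8 replication genes in each C16 library (points) with the mean (bar) and SD (whiskers) of 3 libraries. CDC25A runs from 10.7 to 15.2 with DMSO to 52.4 to 68.6 at 800 nM, and ORC3 and RPA3 lie lower at 800 nM than with DMSO.

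Other genes of the replication pathway numbered 42 in the siRNA set and 41 tested in the C16 set. With PKR siRNA 1, 3 rose (7.14%, against 8.53% of all genes) and 1 fell (2.38%, against 12.6%), with a median of 0.03. With PKR siRNA 2, 1 rose (2.38%, against 10.8%) and 8 fell (19.0%, against 12.8%), with a median of -0.28. At 400 nM C16, 9 rose (22.0%, against 7.08%) and 2 fell (4.88%, against 5.45%), and at 800 nM, 12 rose (29.3%, against 11.6%) and 3 fell (7.32%, against 14.1%), with medians of 0.20 and 0.31. Of the 20 mitotic genes, 2 rose and 0 fell with PKR siRNA 1 (median 0.32), and 0 rose and 6 of 20 fell (against 12.8% of all genes) with PKR siRNA 2 (median -0.43). With C16, 0 mitotic genes rose at either dose (against 7.08% and 11.6% of all genes), and 0 and 1 fell (against 5.45% and 14.1%). The medians were -0.01 and 0.03. At an adjusted p under 0.05 alone, 12 of the 20 mitotic genes were higher with PKR siRNA 1 (against 21.1% of all genes). By the same rule 19 were lower with PKR siRNA 2 (against 25.2%). For C16, 1 was higher at each dose (against 14.6% and 22.3%), and 0 and 5 were lower (against 11.9% and 22.6%). In the direct comparison of the siRNAs, 1 of the 42 other replication genes was higher with PKR siRNA 2 (2.38%, against 16.4%). There 11 were lower (26.2%, against 15.3%), with a median of -0.25. Of the mitotic genes, 0 were higher (against 16.4% of all genes) and 17 lower (85.0%, against 15.3%), with a median of -0.71. Differences between these lists were not tested. The part of dividing cells in the changes of replication genes was not tested.

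The 23 regulators of entry into S phase include both activators and inhibitors of that step. With PKR siRNA 1, 4 rose (17.4%, against 8.53% of all genes) and 2 fell (8.70%, against 12.6%). With PKR siRNA 2, 4 rose (17.4%, against 10.8%) and 7 fell (30.4%, against 12.8%). At 400 nM C16, 8 rose (34.8%, against 7.08%) and 1 fell (4.35%, against 5.45%). At 800 nM, 8 rose (34.8%, against 11.6%) and 3 fell (13.0%, against 14.1%). The cyclin E genes, which drive CDK2 in late G1, rose with C16: CCNE2 went from a mean of 21.0 with DMSO to 51.1 and 64.3, and CCNE1 from 27.1 to 43.3 and 68.2. Both were at -0.17 to 0.16 with the siRNAs and were not called. E2F7, a repressor of E2F targets, rose with PKR siRNA 1 by 1.13 ± 0.18 (limma adjusted p = 2.84e-07) and fell with PKR siRNA 2 by 1.39 ± 0.18 (limma adjusted p = 8.35e-10), and its relative E2F8 fell with PKR siRNA 2 by 0.84 ± 0.21 (limma adjusted p = 0.000528). E2F1 was higher by 0.55 with PKR siRNA 2 and by 0.57 at 800 nM C16, both under the fold threshold. Whether these levels bear on the replication genes was not tested.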

How the data were processed

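The 18 libraries of PANC-1 RNA were selected for poly(A) and made with a kit that marks strand. Per the labels and the study's methods, the authors aligned the reads to hg38 (TopHat), assigned them to genes (featureCounts) and scaled each run by TMM in TCC. The deposited values are this signal, a normalized count per gene, in which whole reads could be recovered (every value within 0.1 read). The value of 1 read lay near 1 in PKR siRNA 2 replicate 1 and 800 nM C16 replicate 1, where whole reads are hard to tell from rounding. The annotation and the use of strand in counting are not given in the sources used here. By the exon coordinates of the files, 6 of the 49 genes overlap a gene on the other strand. In GENCODE 10 of the 49 have a pseudogene named after them. These are FEN1, ORC1, PCNA, POLD2, RFC3, RFC5, RPA2, RPA3, RRM2 and TYMS. The counts of the genes of either kind are uncertain.

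Tests used limma 3.58.1 in R 4.3.3 (lmFit, eBayes with trend), two-sided, on all 9 libraries of a run. The 49 genes and the other lists were chosen with earlier results of these data known. Values of every library are given for genes called in at least 2 comparisons with a control, and for the called gene with the largest change in each role and comparison. Pseudocounts of 0.5 and 5, both no filter and a mean of 30, rescaling by the median of ratios, fitting the compared groups alone, a replicate block, no fold threshold, tests of the recovered reads with edgeR 4.0.16 and DESeq2 1.42.0, and leaving out each library were tried. The fit was tested on simulated reads. All 18 replicate pairs differed beyond sampling noise, with a chi-square over genes of 1.03 to 1.627 per degree of freedom. The largest were those of DMSO replicate 3 with DMSO replicate 1 (1.627) and replicate 2 (1.372). Each library was kept.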

Additional observations from a re-analysis of the deposited data

Results flagged for a closer look

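For POLA2 and RFC4, every PKR siRNA 1 library lay above the controls and every PKR siRNA 2 library below them. Against the controls, the fall of POLA2 with PKR siRNA 2 was called. The other differences, 0.48 for POLA2 with PKR siRNA 1 and 0.36 and -0.43 for RFC4 with PKR siRNA 1 and 2, were not. The difference, PKR siRNA 2 minus PKR siRNA 1, was -1.145 on the log2 scale for POLA2 and -0.788 for RFC4, and it passed the limma test of the difference in both. Neither call of that difference was lost when any single library was left out or under any other alternative tried.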

How the results depend on the processing

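Of the calls in the comparisons with a control, 4 of 6 held under every alternative with PKR siRNA 1, 11 of 13 with PKR siRNA 2, 6 of 9 at 400 nM C16 and 15 of 19 at 800 nM. Between treatments 6 of 13 held for the siRNAs and 0 of 1 for the doses. No called value changed sign. Without the fold threshold the counts up and down were 10 and 6 (PKR siRNA 1), 27 down (PKR siRNA 2), 1 and 27 (PKR siRNA 2 against 1), 20 up (400 nM) and 7 and 1 (800 against 400 nM), by construction. The fall at 400 nM numbered 0 with a pseudocount of 5 and with DESeq2, and the rises between doses numbered 2 with rescaling, edgeR and DESeq2; the cause was not tested. Medians were 0.042 (edgeR) and 0.04 (DESeq2) with PKR siRNA 1, -0.322 (minimum mean 30) and -0.251 (edgeR and DESeq2) with PKR siRNA 2, -0.309 (pseudocount 5), -0.321 (edgeR) and -0.319 (DESeq2) between the siRNAs, and 0.447 (minimum mean 30) at 800 nM. Leaving out 1 library at a time, rises with PKR siRNA 1 numbered 3 to 5 and its median ran from 0.006 to 0.049, rises with PKR siRNA 2 numbered 1 to 2 and its median -0.308 to -0.248, the median between the siRNAs ran from -0.347 to -0.266, falls at 400 nM numbered 0 to 1, the median at 800 nM ran from 0.376 to 0.420, and between doses 0 to 3 rose and 0 to 1 fell. The replicate numbers did not pair the libraries (correlations of deviations -0.027 to 0.032 and -0.049 to 0.017), and a replicate block left the counts at 3 and 3, 1 and 12, 0 and 13, 8 and 1, 16 and 3, and 1 and 0, with medians of 0.012, -0.27, -0.347, 0.285, 0.367 and 0.141. The C16 set had fewer reads, which limits genes such as GINS3 and POLE2.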

Other observations

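The genes whose pattern over the 9 siRNA libraries was most like that of POLA2 were PPIH (Pearson r 0.989), MDN1 (0.988) and RANBP1 (0.987), of 10593 genes. Those most like CDC25A over the 9 C16 libraries were PDCD11 (0.993), PTRH2 (0.992) and NCAPG2 (0.990), of 9963 genes. These correlations are over libraries that fall into 3 groups, and are given as a description with no test.

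The genes with the highest level per kilobase in control siRNA libraries were RRM2 (186 normalized counts per kilobase), MCM7 (146), PCNA (142) and TK1 (134). In DMSO libraries they were PCNA (102), TK1 (97.2), MCM7 (85.6) and RRM1 (78.2), and the lowest was CDC25A (3.45).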
